A study of Mus musculus with 24 samples.

Results

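This report describes 8 erythroid genes in mouse liver, Alas2, Slc4a1, Klf1, Epor, Sptb, Ahsp, Hemgn and Epb4.2, which are best known from developing red blood cells. They were taken by name: every non-control probe on the array whose annotated gene was 1 of the 8 was used, which gave 13 probes of 56605. Of the 8 genes, 7 had a probe bright enough to test, among 22088 tested genes; Epb4.2 had none. The study was a 2-by-2 design in female sv129/C57 mice, 8 weeks old, crossing loss of the oxysterol receptors LXRalpha and LXRbeta with fumonisin B1 (FB1), a mould toxin that inhibits ceramide synthases. Wild-type mice (LXR_WT) and mice lacking both receptors (LXR_KO) received either water, as controls, or FB1 at 10 mg per kg body weight a day for 1 month, with 6 mice and 6 arrays in each of the 4 groups. The labels name no driver or promoter that would limit the knockout to a cell type. Total RNA of liver was measured on single-colour Agilent arrays.

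Red cells are made in the adult bone marrow and, in the mouse, the spleen, whereas the liver is the main site of red cell formation before birth. The hormone erythropoietin acts through its receptor Epor on early erythroid cells. Klf1 is a zinc-finger transcription factor that switches on the erythroid programme, and Hemgn is a nuclear protein of blood cell precursors. Alas2 makes the first intermediate of haem in erythroid cells, and Ahsp binds and stabilises free alpha globin. Slc4a1 (band 3) is the anion exchanger of the red cell membrane, Sptb is the beta chain of its spectrin skeleton, and Epb4.2 (protein 4.2, now named Epb42) ties both to each other. Liver tissue holds blood, so its RNA includes that of circulating cells.

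Levels are log2 processed signals relative to each array's own 75th percentile, so 0 means as bright as that percentile. A difference is the log2 difference of 2 group means, with its standard error (SE), from a limma fit over all 24 arrays. A gene was called higher or lower at a Benjamini-Hochberg adjusted p under 0.05 over all 22088 genes. The arrays gave 59305 non-control spots each, of which 58.7% to 64.5% were well above background and none was saturated, and arrays of a group correlated at 0.984 to 0.994 over genes; the precision is set by the 6 arrays in a group. The targeted genes matched the labels: Nr1h3 (LXRalpha) lay between 4.71 and 5.06 in the wild-type arrays and between -5.13 and -2.56 in the knockout arrays, and Nr1h2 (LXRbeta) between 4.02 and 4.34 against 0.31 to 0.80. All 14 hepatocyte markers on the array were well above background on all arrays.

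Promoter sequences were available from RefSeq (GRCm38.p6) for 6 of the 8 genes. Those of Alas2, which was higher without the receptors, and of Klf1 and Sptb, which were lowest in the knockout given FB1, are shown as the 250 bases before the annotated start, 5′ to 3′ on the gene's strand. Capitals mark matches, on either strand, to AGATAA or TGATAA (the letters GATA factors bind) and to CCNCNCCC (the form bound by Klf1-type factors), overlapping matches included.
Alas2, chrX:150547167-150547416, plus strand: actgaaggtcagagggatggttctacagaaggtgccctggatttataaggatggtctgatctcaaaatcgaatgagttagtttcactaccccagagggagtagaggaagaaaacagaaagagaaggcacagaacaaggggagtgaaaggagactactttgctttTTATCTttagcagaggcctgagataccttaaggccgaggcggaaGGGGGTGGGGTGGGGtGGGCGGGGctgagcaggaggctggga
Klf1, chr8:84901732-84901981, plus strand: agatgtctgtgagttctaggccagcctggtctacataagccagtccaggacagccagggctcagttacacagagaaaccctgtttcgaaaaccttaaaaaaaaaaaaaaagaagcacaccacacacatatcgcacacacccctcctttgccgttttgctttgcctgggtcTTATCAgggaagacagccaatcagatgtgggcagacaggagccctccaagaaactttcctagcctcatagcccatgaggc
Sptb, chr12:76710548-76710797, minus strand: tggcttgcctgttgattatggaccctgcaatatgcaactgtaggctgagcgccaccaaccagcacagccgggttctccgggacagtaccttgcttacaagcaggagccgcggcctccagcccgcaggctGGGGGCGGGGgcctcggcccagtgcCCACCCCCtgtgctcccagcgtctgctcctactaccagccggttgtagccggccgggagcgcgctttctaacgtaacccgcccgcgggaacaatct
AGATAA or TGATAA was in 5 of the 6 windows, all but that of Sptb, and in 16.6% of 32851 RefSeq promoter windows of the same length. CCNCNCCC was in 4 of the 6, all but those of Klf1 and Epb4.2, and in 45.9% of all windows. The Klf1 window holds TGATAA 80 bases before the start, read as TTATCA, and the Alas2 window holds AGATAA 86 bases before it, read as TTATCT. These are matches of letters and show no binding.

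The array sequence that matters most is the Hemgn probe. It is 60 bases long and its last 36 bases, from base 25 on, are a run of GT repeats; bases 13 to 42 are shown, with the repeat in capitals.
Hemgn probe: acatagacaataGTGTGTGTGTGTGTGTGT
The longest GT or AC run in any other probe of the 8 genes was 6 bases.

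Among the 7 tested erythroid genes none was called with FB1 in wild-type liver, where 2.89% of all tested genes were. At an unadjusted limma p under 0.05 were 3 of the 7, Ahsp and Slc4a1 higher and Hemgn lower. The 2.89% is at the adjusted threshold and cannot be set beside that count. With FB1 in knockout liver 3 were called, all lower (Klf1, Sptb and Hemgn), against 41.2% of all genes called either way and 24.6% lower. Without FB1, loss of the receptors came with 2 higher genes (Alas2 and Hemgn) and 1 lower gene (Sptb), against 15.2% of all genes called, 7.21% higher and 8.02% lower. Under FB1 the knockout had 1 higher gene (Alas2) and 2 lower (Klf1 and Sptb), against 32.8%, of which 14.5% higher and 18.3% lower. The FB1 effect itself differed between genotypes for 2 of the 7, Klf1 and Sptb, both more negative in the knockout, against 9.3% of all genes, 4.84% lower. For FB1 in knockout liver and for genotype under FB1, the share of the 7 called either way was thus close to that of all genes. Sptb entered the test only because it was bright enough throughout wild-type controls, the group against which the knockout was lower, and most knockout arrays were not well above background, so its calls lend no support to these counts. The Hemgn calls are those of a probe with a GT repeat that moved with other GT-repeat probes, so they lend no support either. The comparisons share groups, so the same arrays enter several of them. In bulk liver RNA, fewer cells of a type and less RNA per cell cannot be told apart.

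**Figure D1:**
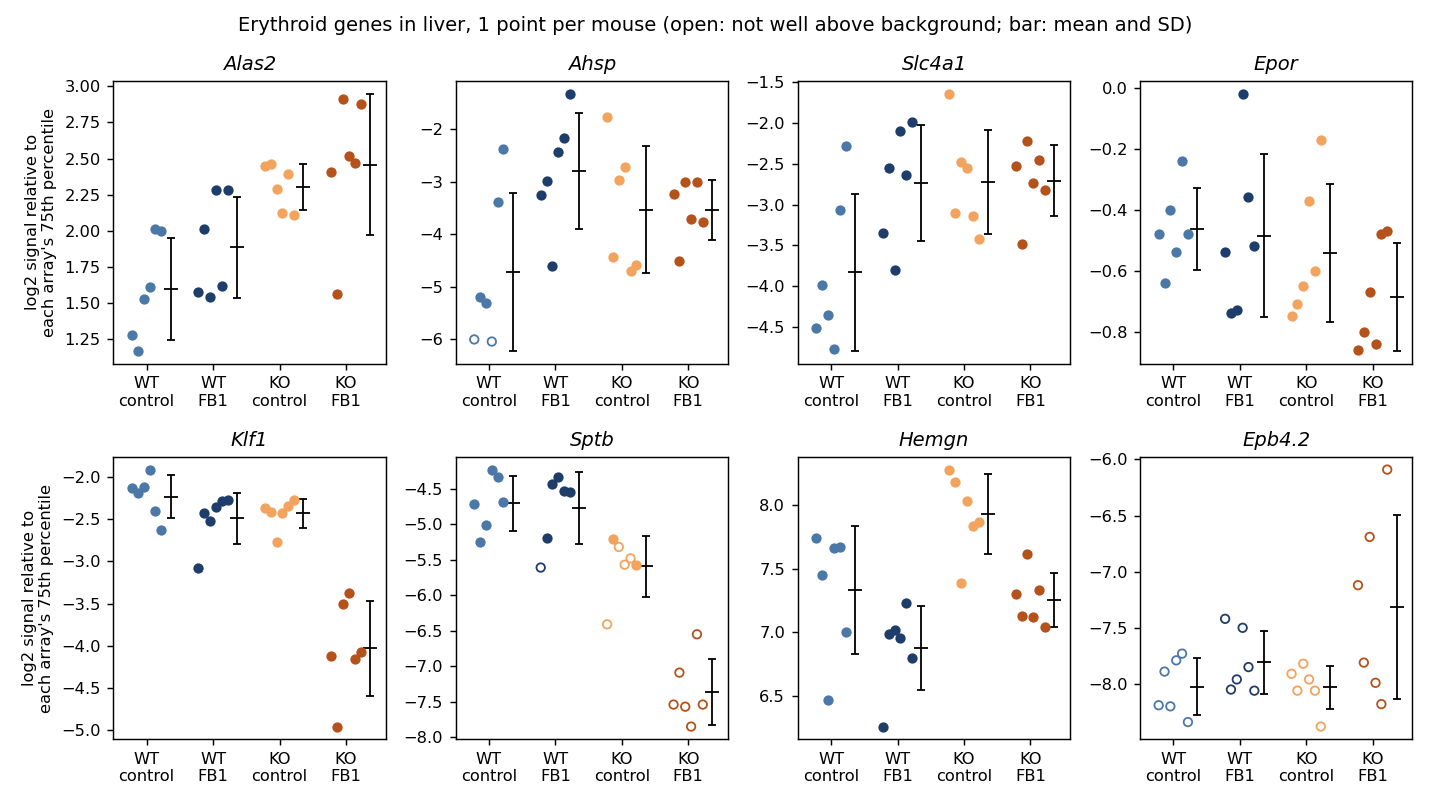
Level of each erythroid gene on each of the 24 arrays (y axis: log2 signal relative to the array's 75th percentile; x axis: the 4 groups; open points: not well above background; bars: mean and SD, n = 6). Ahsp ranges from -6.04 to -1.33 across arrays, the 6 Klf1 points of the knockout with FB1 lie below all others, and all Epb4.2 points are open.

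**Figure D2:**
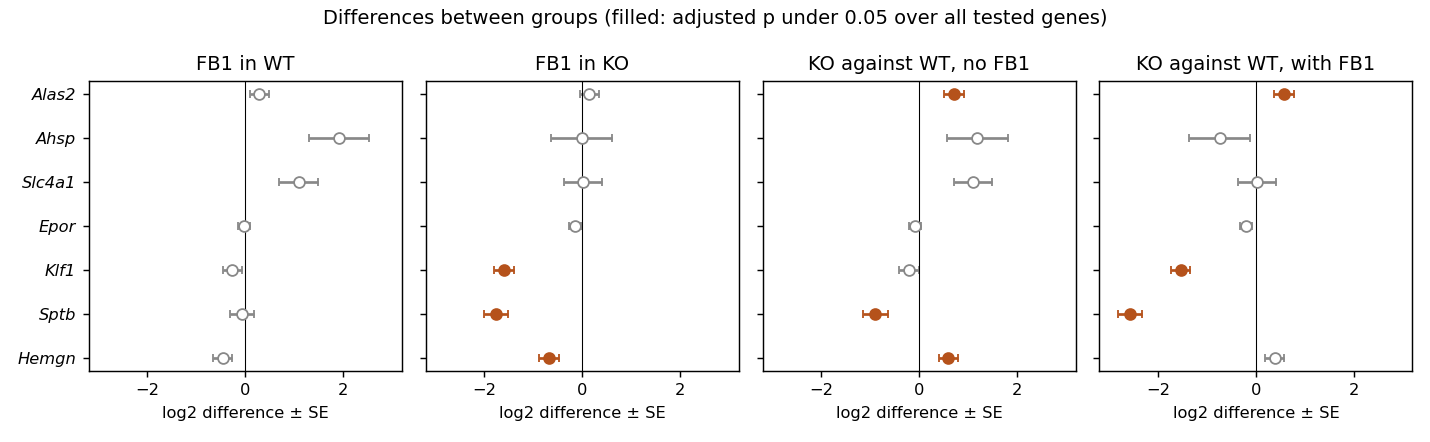
Log2 difference and SE of the 7 tested genes in the 4 comparisons (x axis: log2 difference; filled: adjusted p under 0.05 over all tested genes). No gene is filled for FB1 in wild-type liver; Klf1 lies at -1.60 for FB1 in the knockout and at -1.54 for knockout against wild type with FB1. The Sptb points are fitted differences of values that were in part not well above background.

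Alas2 was higher in liver without LXR, both with and without the toxin. Its probe, at chrX:147004993-147005052 (mm9), was well above background on all 24 arrays. The 6 wild-type control mice read 1.28, 1.17, 1.53, 1.61, 2.01 and 2, and the 6 knockout control mice 2.45, 2.46, 2.29, 2.12, 2.39 and 2.11. Every knockout control thus lay above every wild-type control, as was the case, in either direction, for 7.93% of all genes. The difference was 0.71 ± 0.20 (SE, 1.63-fold, limma adjusted p = 0.0161). With FB1 the wild-type mice read 1.58, 2.01, 1.54, 2.28, 1.62 and 2.28, and the knockout mice 2.41, 1.56, 2.91, 2.52, 2.47 and 2.88. Mouse 2 of the knockout FB1 group lay within the wild-type range and the other 5 above it. The difference there was 0.57 ± 0.20 (1.49-fold, adjusted p = 0.0283). That call was lost when any 1 of 5 arrays was left out, those of knockout FB1 mice 3 and 6 and wild-type FB1 mice 1, 3 and 5, with values of 0.48 to 0.52, and also without the filter on dim probes and in a fit of these 2 groups alone.

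FB1 did not change Alas2 past the threshold in either genotype: the difference was 0.29 ± 0.20 in wild type (95% interval -0.12 to 0.69) and 0.15 ± 0.20 in the knockout (-0.25 to 0.56). Ordered by mean, Alas2 stood at 1.60 ± 0.35 (SD, n = 6) in wild-type controls, 1.88 ± 0.35 in wild type with FB1, 2.31 ± 0.16 in knockout controls and 2.46 ± 0.49 in the knockout with FB1, and each neighbouring pair overlapped. Within each slide, which carried 2 arrays of every group, the knockout minus wild-type difference without FB1 was 0.75, 0.71 and 0.65.

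Ahsp and Slc4a1 varied widely between mice of the same group, and the same mice were high or low for both. The Ahsp probe has no position in the array's annotation. In wild-type controls Ahsp read -6.00, -5.20, -5.31, -6.04, -3.38 and -2.38, with mice 1 and 4 not well above background. In wild type with FB1 it read -3.25, -2.98, -4.60, -2.44, -2.17 and -1.33. In knockout controls the values were -1.77, -4.43, -2.97, -2.73, -4.70 and -4.59, and in the knockout with FB1 -3.24, -4.50, -3.01, -3.70, -3.01 and -3.77. All 4 groups overlapped, and wild-type control mice 5 and 6 stood above the other 4 of their group. The SD within a group was 1.5, 1.11, 1.21 and 0.57 in that order of groups; 95.0% to 99.6% of all tested genes had a smaller SD in the same group, and the median gene's SD was between 0.17 and 0.21.

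The Slc4a1 probe lies at chr11:102210256-102210315 (mm9). It read -4.52, -3.99, -4.36, -4.78, -3.07 and -2.28 in wild-type controls and -3.35, -2.55, -3.81, -2.10, -2.64 and -1.99 in wild type with FB1. It read -1.64, -3.11, -2.48, -2.55, -3.14 and -3.42 in knockout controls and -2.53, -3.49, -2.22, -2.74, -2.45 and -2.82 in the knockout with FB1. The same wild-type control mice, 5 and 6, were again the highest of their group, and knockout control mouse 1 the highest of its group for both genes. The SDs were 0.97, 0.72, 0.65 and 0.44, and 89.6% to 98.3% of genes had a smaller one.

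With this spread no comparison of Ahsp or Slc4a1 was called. For FB1 in wild type, Ahsp differed by 1.92 ± 0.62 (3.79-fold, adjusted p = 0.0989, 95% interval 0.63 to 3.22) and Slc4a1 by 1.09 ± 0.39 (2.14-fold, adjusted p = 0.135, 0.29 to 1.90). Leaving out wild-type control mouse 6 alone brought both past the threshold, at 2.39 for Ahsp and 1.41 for Slc4a1, and raised the count of called genes for FB1 in wild type from 0 to 2. In the knockout the FB1 differences were -0.01 ± 0.62 for Ahsp and 0.01 ± 0.39 for Slc4a1, with intervals from -1.30 to 1.29 and from -0.80 to 0.82. The difference of the FB1 effects between genotypes was not called either, at -1.93 ± 0.88 for Ahsp (adjusted p = 0.176) and -1.08 ± 0.55 for Slc4a1 (adjusted p = 0.233). For knockout against wild type without FB1 Slc4a1 differed by 1.11 ± 0.39 (adjusted p = 0.0582), and it was called when wild-type control mouse 5 (1.26), wild-type control mouse 6 (1.42) or knockout control mouse 6 (1.25) was left out. Ahsp differed there by 1.19 ± 0.62 (adjusted p = 0.231). By mean, wild-type controls were lowest for both genes (-4.72 for Ahsp, -3.83 for Slc4a1), and wild type with FB1, knockout controls and knockout with FB1 had means of -2.79, -3.53 and -3.54 for Ahsp and of -2.74, -2.72 and -2.71 for Slc4a1.

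The mouse-to-mouse differences of the 3 genes ran together over all arrays, though Alas2 did so less closely and least so among knockout controls. Over the 24 arrays, with each group's mean removed, Ahsp and Slc4a1 correlated at r = 0.96 (Spearman rho 0.92; permutation p = 1e-05 for each, the smallest that 100000 permutations within groups can give; 0.00021 after Benjamini-Hochberg adjustment over the 21 pairs of tested genes). Without the 2 most extreme arrays r was 0.93, within the slides it was 0.96, 0.96 and 0.95, and within the 4 groups it lay between 0.90 and 0.99. Alas2 correlated with Slc4a1 at r = 0.66 (permutation p = 0.00048, adjusted 0.00504; rho 0.68, p = 0.00106, adjusted 0.0111), with 0.65 without the extremes and 0.72, 0.70 and 0.62 within slides. Alas2 correlated with Ahsp at r = 0.55 (permutation p = 0.00344, adjusted 0.0241), but its rho of 0.49 (permutation p = 0.0174) had an adjusted p of 0.122; r was 0.54 without the extremes and 0.57, 0.56 and 0.49 within slides. Among knockout controls alone, r was 0.32 for Alas2 with Slc4a1 and 0.06 for Alas2 with Ahsp. In the other groups it lay between 0.74 and 0.89 and between 0.67 and 0.81. None of the other 18 pairs had an adjusted p below 0.172. Klf1 against Slc4a1 gave r = 0.05 (permutation p = 0.815, adjusted 0.901), with -0.28 without the extremes and 0.21, 0.21 and -0.48 within slides. Within groups its direction differed: r was -0.98 in wild-type controls and -0.30 in knockout controls. It was 0.62 in wild type with FB1 and 0.74 in the knockout with FB1.

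**Figure D3:**
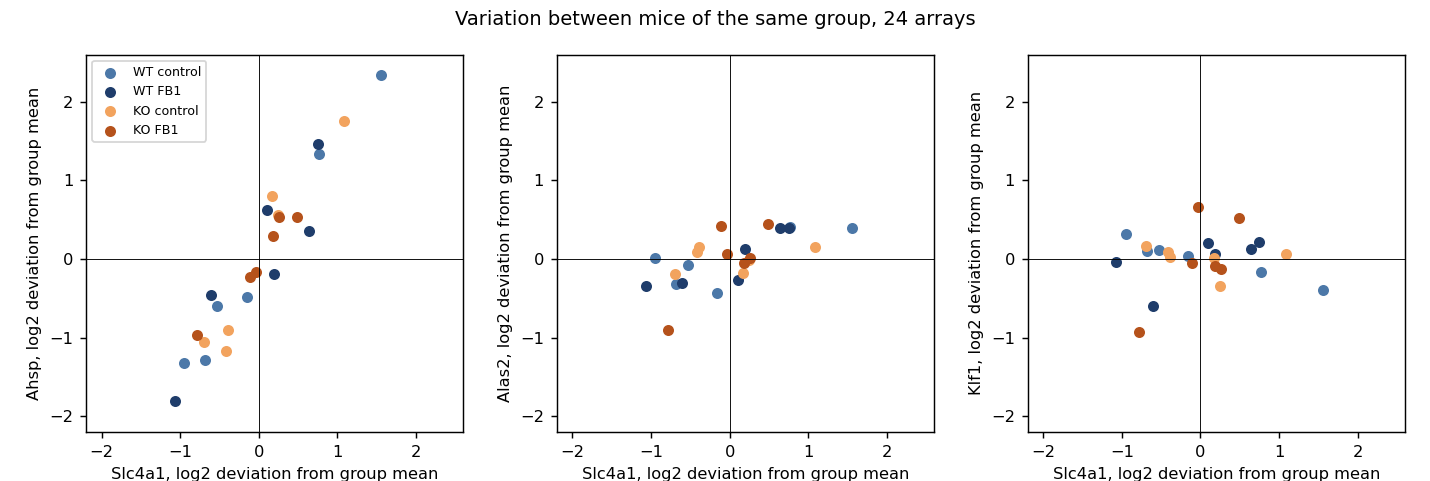
Deviation of each array from its group's mean (both axes: log2 units; 1 point per array, coloured by group) for Slc4a1 on the x axis and Ahsp, Alas2 or Klf1 on the y axis. Ahsp follows Slc4a1 along a line steeper than 1 to 1 (r = 0.96), and Alas2 follows it along a flatter line (r = 0.66). Klf1 shows no common line over all arrays (r = 0.05), and its direction differs between groups.

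The genes whose deviations were most like the mean of the 7 tested erythroid genes included 4 adult globin genes. Over the 24 arrays r was 0.757 for Hbb-bt, 0.751 for Hbb-b1, 0.744 for Hba-a1 and 0.743 for Hba-a2. Also in the top 10 were Awat2 (0.816), Sft2d1 (0.799), an unnamed transcript on chromosome 14 (0.783), Bmp1 (0.758) and Slc35e2 (0.741). Against the mean of Alas2, Ahsp and Slc4a1 alone, a choice made after their values were seen, the highest-ranking globin genes were Hbb-bt (r = 0.848), Hba-a1 and Hba-a2 (0.805 each), Hbb-b2 (0.793) and Hbb-b1 (0.784). The paired alpha globin genes, and the beta globin genes, are near-identical copies, so their probes may read each other's RNA and are not separate evidence.

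All 5 tested globin genes had their lowest mean in wild-type controls: Hba-a1 had means of 7.59, 8.10, 8.24 and 8.01 in wild-type controls, wild type with FB1, knockout controls and knockout with FB1. These 5 had a median difference of 0.54 for FB1 in wild type and 0.79 for knockout against wild type without FB1, against -0.03 and 0.01 over all genes, and -0.23 for FB1 in the knockout, against -0.08. None of the 5 was called in any comparison; for knockout against wild type without FB1 all 5 had an unadjusted limma p under 0.05, and in the other 4 comparisons none had. Leaving out wild-type control mouse 5, or mouse 6, brought all 5 past the threshold for that comparison, quantile normalization 2, and the authors' values or the replicate number as a block 1. Their summed level ranged from 7.90 to 9.96 in wild-type controls, 8.95 to 9.82 in wild type with FB1, 9.12 to 9.74 in knockout controls and 8.78 to 9.69 in the knockout with FB1. The embryonic globins Hba-x and Hbb-y were on none of the arrays well above background, and Hbb-bh1 on at most 8.

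Klf1 was lowest in the knockout given FB1, and by its main probe the other 3 groups overlapped. Its main probe, at chr8:87428881-87428940 (mm9), was well above background on all arrays. It read -2.13, -2.19, -2.12, -1.91, -2.40 and -2.63 in wild-type controls and -3.08, -2.42, -2.52, -2.36, -2.28 and -2.27 in wild type with FB1. It read -2.37, -2.41, -2.77, -2.42, -2.34 and -2.27 in knockout controls, and -4.12, -4.96, -3.51, -3.37, -4.16 and -4.08 in the knockout with FB1. No array of that last group overlapped any array of the others. FB1 lowered Klf1 in the knockout 3.04-fold (-1.60 ± 0.20, adjusted p = 1.93e-06), and the knockout lay 2.92-fold below wild type under FB1 (-1.54 ± 0.20, adjusted p = 2.04e-06). Groups did not overlap for 18.4% and 15.2% of all genes in these 2 comparisons. The FB1 difference in wild type was -0.26 ± 0.20 (adjusted p = 0.507) and the knockout difference without FB1 -0.20 ± 0.20 (adjusted p = 0.572), neither called. The FB1 effect was more negative in the knockout by 1.34 ± 0.28 (adjusted p = 0.00477). By mean the order was -2.23 ± 0.25 (SD, n = 6), -2.43 ± 0.18, -2.49 ± 0.30 and -4.03 ± 0.57 for wild-type controls, knockout controls, wild type with FB1 and knockout with FB1, of which the first 3 overlapped.

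A second Klf1 probe, at chr8:87427100-87427159, did not give the same picture. Its means were -2.48 ± 0.14, -2.86 ± 0.46, -3.54 ± 0.17 and -4.34 ± 0.45 for wild-type controls, wild type with FB1, knockout controls and knockout with FB1. On this probe the knockout was already lower without FB1 (-1.06 ± 0.19, limma adjusted p over all tested probes = 0.000254), FB1 lowered it further in the knockout (-0.80 ± 0.19, adjusted p = 0.00168), and the knockout lay below wild type under FB1 (-1.48 ± 0.19, adjusted p = 1.88e-06). The difference of the FB1 effects was -0.42 ± 0.26 and not called (adjusted p = 0.357). The 2 probes thus both gave lower Klf1 with FB1 in the knockout, and disagreed on the knockout difference without FB1 and on whether the FB1 effect depends on genotype. With the mean of both probes, the knockout difference without FB1 was called at -0.63.

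The within-slide FB1 differences of the main Klf1 probe in the knockout were -2.01, -1.12 and -1.69. The genes most like Klf1 over the 24 arrays, looked up after its values were seen, were Tdo2 (r = 0.840) and Cyp1a2 (0.838), enzymes of tryptophan breakdown and xenobiotic oxidation in hepatocytes, and no globin gene was among the first 10. The summed level of the 14 hepatocyte markers was 12.22 to 12.47 in knockout controls and 11.92 to 12.46 in the knockout with FB1. With FB1 in the knockout 5 of the 14 were called lower, led by Cps1 (-0.83), Cyp2e1 (-0.64) and Pck1 (-0.73). Of all genes 41.2% were called in that comparison and 24.6% were lower. The part of hepatocyte markers in the Klf1 result was not tested.

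Sptb was measured in wild-type liver and was mostly not well above background in the knockout. Its tested probe, at chr12:77697657-77697716 (mm9), was well above background on 6, 5, 2 and 0 of 6 arrays in wild-type controls, wild type with FB1, knockout controls and knockout with FB1, and it was tested because of the first of these groups alone. The values were -4.72, -5.25, -5.01, -4.23, -4.33 and -4.68 in wild-type controls and -5.61, -5.19, -4.44, -4.34, -4.53 and -4.55 in wild type with FB1. They were -6.41, -5.21, -5.32, -5.57, -5.48 and -5.58 in knockout controls, and -7.54, -7.09, -7.57, -7.85, -6.55 and -7.54 in the knockout with FB1. The last group overlapped none of the others, the others overlapped each other.

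For knockout against wild type without FB1 the fitted difference was -0.89 ± 0.25 (limma adjusted p = 0.0144), with 4 of the 6 knockout values not well above background; it was -0.78 with values below each array's floor raised to it, and with normexp background correction it was -0.18 and not called. The floor is the lowest signal well above background on an array. For FB1 in the knockout the fitted means were -7.36 and -5.59 (limma adjusted p = 8.46e-06), but with 0 and 2 of 6 arrays well above background no size is given. With the main processing, Sptb under FB1 was at least 2.13-fold lower in the knockout than in wild type, a bound against the floor. Of the wild-type arrays, 5 of 6 were above background. The measured means were -7.36 in the knockout and -4.78 in wild type, with a limma adjusted p of 2.72e-08 for the fitted difference. Over 12 alternative settings the fitted difference ran from -3.1 to -0.39 and stayed called, so the bound does not hold in every setting. The FB1 difference in wild type was -0.07 ± 0.25 (adjusted p = 0.908). The fitted difference of the FB1 effects was -1.69 ± 0.35 (adjusted p = 0.00458); with values below each array's floor raised to it, it was -0.38. With normexp neither was called, at -0.18 for FB1 in the knockout and -0.21 for the difference of the effects. The second Sptb probe, at chr12:77682089-77682148, was on none of the 24 arrays well above background.

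The Hemgn probe whose GT repeat is shown above read lower with FB1 in the knockout and higher in knockout than in wild-type controls. A change of Hemgn RNA is not shown by it, because other probes with that repeat moved alike. That probe lies at chr4:46407248-46407307 (mm9). It read 7.74, 7.45, 6.47, 7.66, 7.67 and 7 in wild-type controls and 6.26, 6.99, 7.02, 6.96, 7.23 and 6.80 in wild type with FB1. It read 8.28, 8.18, 7.39, 8.03, 7.84 and 7.87 in knockout controls and 7.30, 7.13, 7.62, 7.12, 7.33 and 7.04 in the knockout with FB1. Each pair of groups overlapped except wild type with FB1 and knockout controls. FB1 lowered the signal 1.60-fold in the knockout (-0.68 ± 0.20, adjusted p = 0.00799), a call lost under quantile normalization (-0.38) and with the authors' values (-0.37). The knockout was 1.52-fold above wild type without FB1 (0.60 ± 0.20, adjusted p = 0.0391), a call lost when any 1 of 7 arrays was left out (knockout controls 1, 2, 4, 5 and 6 and wild-type controls 3 and 6, values 0.43 to 0.62). The difference for FB1 in wild type was -0.46 ± 0.20 (adjusted p = 0.221), and for knockout against wild type with FB1 0.38 ± 0.20 (adjusted p = 0.146), the latter called under quantile normalization (0.59) and with the authors' values (0.61).

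The other Hemgn probe, at chr4:46407366-46407425, was well above background on 1 array, wild-type control mouse 4, at -3.42. Its other 23 arrays lay between -8.43 and -6.57. The 2 probes of Hemgn disagreed on whether the gene was well above background.

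Probes of other genes with the same repeat moved as the Hemgn probe did. On the array, 36 other probes carry a GT run of at least 24 bases; all 36 were well above background on all 24 arrays, against 29429 of 56550 probes with neither a GT nor an AC run. Over the 24 arrays, with group means removed, all 36 correlated with the Hemgn probe above 0.9, with a median r of 0.99. Among tested probes with neither run, the median r was 0.05 and 0.183% were above 0.9. With FB1 in the knockout all 36 were called lower, with a median of -0.65, and for knockout against wild type without FB1 19 were called higher and none lower, with a median of 0.60; the Hemgn values were -0.68 and 0.60. The 17 probes with an AC run, the complementary letters, had a median r of -0.78 with the Hemgn probe, a median of 0.32 with FB1 in the knockout, and a median of -0.59 for knockout against wild type without FB1, where 14 were called lower. The genes named for the 10 profiles most like Hemgn, among them Nrp2 (r = 0.996), Arl6ip6, Terf2ip and Atxn7 (0.995 each), all had probes with GT runs of 20 to 32 bases. The values of the Hemgn probe could not be told apart from those of this class of repeat probes.

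**Figure D4:**
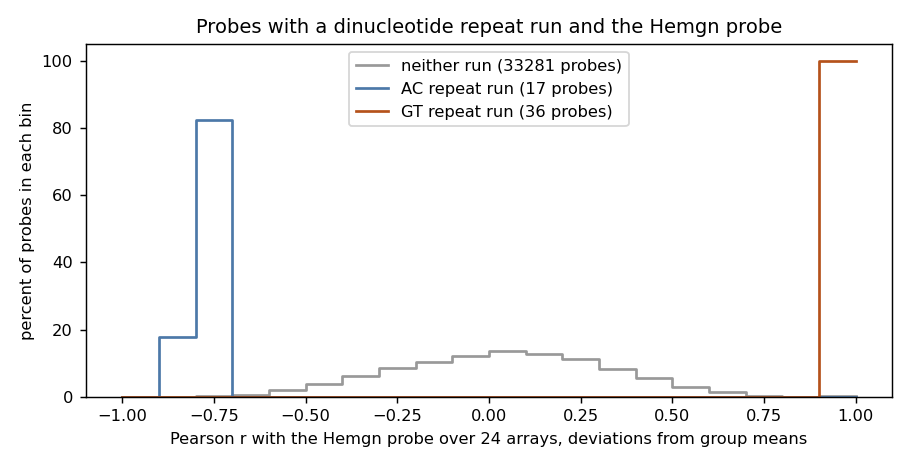
Pearson r of each tested probe with the Hemgn probe over 24 arrays, group means removed (x axis), as percent of the probes of each kind (y axis): probes with a GT run, an AC run or neither. All 36 GT probes fall in the highest bin, the 17 AC probes lie below -0.7, and the other probes spread around a median of 0.05.

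Epor showed no called difference. Its tested probe, at chr9:21763422-21763481 (mm9), was well above background on all arrays. It read -0.48, -0.64, -0.40, -0.54, -0.24 and -0.48 in wild-type controls and -0.54, -0.74, -0.73, -0.02, -0.36 and -0.52 in wild type with FB1. It read -0.75, -0.71, -0.65, -0.37, -0.60 and -0.17 in knockout controls and -0.86, -0.80, -0.67, -0.84, -0.48 and -0.47 in the knockout with FB1. All groups overlapped, and no comparison was called. The differences were -0.02 ± 0.12 for FB1 in wild type (95% interval -0.27 to 0.22), -0.15 ± 0.12 for FB1 in the knockout (-0.39 to 0.10), -0.08 ± 0.12 for knockout against wild type without FB1 (-0.32 to 0.17) and -0.20 ± 0.12 with FB1 (-0.45 to 0.04). The genes most like Epor between mice, looked up after its values were seen, were Lama4 (r = 0.837) and Adgrg3 (0.834), with the sinusoidal endothelial lectin Clec4g at 0.764, and no globin gene was among the first 10. The second Epor probe was well above background on 8 of 24 arrays and was not tested.

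Epb4.2 was not measured well above background on any array by either of its probes, at chr2:120844440-120844499 and chr2:120849386-120849445 (mm9). Its values lay between -8.38 and -6.09 on the first and between -8.29 and -7.32 on the second. The 3 highest values of the first probe were all from knockout mice with FB1. Without the filter on dim probes that probe was called higher with FB1 in the knockout (0.72), although none of its values was well above background.

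The wider erythroid lists were counted in the same fit. Of the 18 genes of haem synthesis and iron supply, all tested, FB1 lowered 9 in the knockout and raised none (median -0.24). Of all genes 41.2% were called there and 24.6% were lower. The share called either way was thus near that of all genes, and the share called lower was larger than theirs. They were led by Aco1, the iron regulatory protein and cytosolic aconitase (-0.63 ± 0.07, adjusted p = 8e-07), Fech, which puts iron into haem (-0.50 ± 0.07, adjusted p = 1.04e-05), and Slc25a38, the mitochondrial glycine carrier (-0.58 ± 0.09, adjusted p = 2.35e-05). Without FB1 the knockout had 7 of the 18 higher and 2 lower, with Fech (0.78 ± 0.07, adjusted p = 1.73e-08) and Alad, the second enzyme of the pathway (0.93 ± 0.10, adjusted p = 5.66e-07), higher and the transporter Abcb10 lower (-0.72 ± 0.09, adjusted p = 5.8e-06); 15.2% of all genes were called there. Under FB1 the split between knockout and wild type was 5 higher and 4 lower, against 32.8% of all genes called, 14.5% higher and 18.3% lower. For FB1 in wild type limma called none (2 at an unadjusted p under 0.05, and 1 called without wild-type control mouse 2). Fech, Aco1 and Slc25a38 were among 4 genes of this list with a more negative FB1 effect in the knockout, the fourth being Ireb2 (-0.42). Without the filter on dim probes 2 were called. Of all genes 9.3% were called for that difference and 4.84% were lower. All genes of this list were well above background on all arrays; hepatocytes also make haem.

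Of 21 membrane and skeleton genes, 13 were tested, and the red cell marker Rhag was on no array well above background. With FB1 in the knockout 6 were lower and 2 higher, 8 of 13 against 41.2% of all genes called: Gypc, a glycophorin, fell (-0.88 ± 0.11, adjusted p = 2.71e-06), as did Cd59a (-0.51 ± 0.11, adjusted p = 0.000639), and Mpp1 rose (0.86 ± 0.10, adjusted p = 6.28e-07). Mpp1 was also the 1 gene of the list called for FB1 in wild type (0.43 ± 0.10, adjusted p = 0.0124). Without FB1 the knockout had lower Cd59a (-1.43 ± 0.11) and higher Dmtn, the gene of an actin-bundling protein of the red cell skeleton (0.91 ± 0.24, adjusted p = 0.0099).

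Of 18 erythroid transcription factors 16 were tested; Gata1 was well above background on 4 arrays and Gfi1b on 10, and neither was tested. FB1 in the knockout raised 5 and lowered 3, 8 of 16 against 41.2% of all genes, led by Bcl11a (1.12 ± 0.16, adjusted p = 1.47e-05), Nfe2l1 (-0.49 ± 0.08, adjusted p = 6.53e-05) and Ikzf1 (0.77 ± 0.14, adjusted p = 0.000121), of which Bcl11a and Ikzf1 are also factors of lymphoid cells. The 7 B and plasma cell markers tested had a summed level of 0.69 to 1.38 in knockout controls and 1.62 to 2.52 in the knockout with FB1; their part in this was not tested.

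Of the erythropoietin pathway, 11 of 13 genes were tested. Epo itself, whose main adult source is the kidney, and Erfe (Fam132b), a hormone released by erythroblasts, were well above background on 1 array each. The feedback genes of STAT5 signalling, Socs2 (-2.36 ± 0.63, adjusted p = 0.0118) and Cish (-1.89 ± 0.57, adjusted p = 0.0251), were lower in knockout controls than in wild-type controls; with the replicate number as a block, or without knockout control mouse 1, 2 or 5 or wild-type control mouse 6, 1 of the list was called in place of 2. With FB1 in the knockout Stat5b (-0.50 ± 0.09, adjusted p = 0.000201) was lower, Lyn (0.26 ± 0.09, adjusted p = 0.0207) was higher, and Podxl was called lower but was well above background on 18 of 24 arrays. These genes serve other cytokines and growth hormone in liver as well.

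Of 18 genes of the late erythroid cytosol 15 were tested, and FB1 in the knockout lowered 3 of them and raised none, a smaller share than the 41.2% of all genes called and the 24.6% lower: the carbonic anhydrase Car1 (-1.46 ± 0.18, adjusted p = 1.93e-06), catalase, Cat (-0.89 ± 0.12, adjusted p = 5.19e-06), and Fam46c (-0.79 ± 0.11, adjusted p = 1.17e-05). With the mean of a gene's probes and with the authors' values 5 were called. Car1, Cat and Fam46c also had a more negative FB1 effect in the knockout than in wild type, by -1.01, -0.70 and -0.72. Of all genes 9.3% were called for that difference and 4.84% were lower. Without FB1 the knockout had 2 higher, among them Prdx2 (0.39 ± 0.07), and 3 lower, Pklr (-1.03 ± 0.21), Xpo7 (-0.36 ± 0.07) and Car2 (-0.42); these 5 became 3 without the dim-probe filter, with only the compared groups fitted, and without knockout control mouse 1, 3 or 4 or wild-type control mouse 2 or 3. Car2 was named after its values were seen. Between knockout and wild-type controls 15.2% of all genes were called, 7.21% higher and 8.02% lower. Which liver cells gave the signals of this list, among them Cat with a mean of 6.62 in wild-type controls, was not tested.

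Genes that clear red cells and haem were called in both genotype comparisons and for FB1 in the knockout. All 15 were tested, and for FB1 in wild type none was called by limma (2 at an unadjusted p under 0.05). Between knockout and wild-type controls 3 were lower and none higher (5 called with the mean of a gene's probes): Cd163, the haemoglobin scavenger receptor of macrophages (-3.72 ± 0.30, adjusted p = 2.88e-09), Hmox1, which breaks down haem (-1.86 ± 0.30, adjusted p = 9.29e-05), and Hamp2, a hepcidin gene (-1.56 ± 0.31, adjusted p = 0.00105). Of all genes 15.2% were called between these controls, with 8.02% lower. Knockout mice given FB1 had lower Hamp2 (-2.75 ± 0.31) and Cd163 (-2.15 ± 0.30) than knockout controls, among 4 lower and 2 higher genes. For FB1 in the knockout 41.2% of all genes were called and 24.6% lower, so the share of this list was near that of all genes. Under FB1 the knockout differed from wild type by -3.32 ± 0.31 for Hamp2 and -5.80 ± 0.30 for Cd163, among 5 lower genes and none higher. In that comparison 32.8% of all genes were called, with 18.3% lower. The share of this list called either way was again near that of all genes, and the share called lower was larger than theirs. The 14 resident macrophage markers had 9 called lower in knockout controls, against 8.02% of all genes. Their summed level was 5.51 to 6.18 there, against 6.45 to 7.84 in wild-type controls. Their part in the fall of Cd163 was not tested.

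Markers of other blood cells were set beside the mouse-to-mouse pattern of Alas2, Ahsp and Slc4a1 as a description over the same 24 arrays, with group means removed. The mean of the globin list correlated with that of the 3 genes at 0.81, that of late erythroid genes at 0.52, and the other erythroid lists at 0.23 (haem synthesis), 0.21 (membrane and skeleton), 0.14 (erythropoietin signalling) and 0.09 (transcription factors). The means of other lists correlated at 0.46 for red cell clearance, 0.33 for B and plasma cell markers, -0.05 for blood stem and progenitor markers, and, for megakaryocyte and platelet, neutrophil granule, resident macrophage and hepatocyte markers, at 0.47, 0.27, 0.20 and 0.16. The megakaryocyte list had 10 of 14 genes tested, with a summed level of 2.62 to 2.99 in wild-type controls, 2.79 to 3.34 in wild type with FB1, 2.41 to 2.86 in knockout controls and 2.22 to 2.64 in the knockout with FB1. The neutrophil list had 14 of 14 tested, with 4.13 to 6.74, 5.01 to 8.18, 4.75 to 7.28 and 5.70 to 6.59 in the same order. That sum includes Lcn2, named after its values were seen, with means of 4.88, 4.88, 5.66 and 5.96 and no called difference. Under FB1, 8 of the 14 were called lower in the knockout than in wild type and none higher, against 18.3% of all genes lower, among them Mpo (-3.13 ± 0.54, adjusted p = 0.000103), Camp (-2.14 ± 0.39, adjusted p = 0.000159) and Ctsg; with only the 10 whose probes were well above background on every array, 5 were. Without FB1 3 were lower, Mpo (-2.21 ± 0.54), Ctsg and Ltf, which became 1 with normexp, with the authors' values, with probes above background on every array, or without knockout control mouse 2 or 4 or wild-type control mouse 3 or 6, and 7 without wild-type control mouse 4. Between knockout and wild-type controls 8.02% of all genes were called lower. Blood stem and progenitor markers, 12 of 12 tested, ran from 1.87 to 2.26, 1.83 to 2.31, 2.11 to 2.35 and 2.34 to 2.63. The part of these cells in the erythroid values was not tested.

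Cell cycle genes rose with FB1 in both genotypes, 33 of 39 tested in wild type, where 2.89% of all genes were called, and 37 of 39 in the knockout, with 1 lower there. Kif20a, a kinesin of cytokinesis, rose by 2.49 ± 0.35 in wild type and 3 ± 0.35 in the knockout (adjusted p = 0.000457 and 1.04e-06). The mean of the cell cycle list correlated with that of Alas2, Ahsp and Slc4a1 at 0.21 from mouse to mouse and with Klf1 at -0.45. Between knockout and wild-type controls, where Alas2 differed, 3 cell cycle genes were higher and 1 lower. Of all genes 15.2% were called there, 7.21% higher and 8.02% lower. The part of the cell cycle signal in the fall of Klf1 with FB1 in the knockout was not tested.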

How the data were processed

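RNA from 24 livers was labelled with Cy3 and hybridised 1 sample to an array. Per the file headers, Agilent Feature Extraction 10.10.1.1 made each array's spot intensity values (processed signal, mean signal, local background), with probe positions in mm9. The authors' own deposited table holds log2 values of 33417 probes, each column with a median of 7.86; every one of its 24 columns followed its own array best (lowest r 0.89), while how the table was normalized was not stated. The submitters' processing notes name limma.

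The log2 processed signal of each array was set relative to its 75th percentile over non-control spots, spots marked as outliers were left out, and replicate spots were averaged. Testing needed a probe to be well above background throughout 1 or more groups (unmarked spots) with a minimum of 4 values per group; a gene took its tested probe with the highest mean. Names came from RefSeq accessions (32994 probes matched) or else the file. limma 3.58.1 (R 4.3.3) fitted the 4 group means over all arrays, with p-values adjusted over 22088 genes; the same fit was tested on simulated data. Correlations used Python 3.11.15. Alternatives covered normalization, background correction, dim-probe filters, the probe rule, outlier spots, slides, the replicate number as a block, each array left out, and the authors' values.

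The 8 genes and the 15 gene lists were chosen with earlier results of these data known. Named from each list were up to 3 called genes with the smallest p in a comparison, or the 1 with the smallest p; other names are said to be chosen after their values were seen. A few genes that this rule names are not reported here. Per the labels there were 6 mice a group; same-numbered mice of different groups did not deviate together.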

Additional observations from a re-analysis of the deposited data

Results flagged for a closer look

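Within 28 groups of 6 arrays (7 tested genes in 4 groups) 4 arrays stood apart from their group by Dixon's gap criterion, which chance meets in about 1 group in 20. Klf1 was at -3.08 in wild-type FB1 mouse 1, with the next at -2.52, and at -2.77 in knockout control mouse 3, with the next at -2.42. Alas2 was at 1.56 in knockout FB1 mouse 2, with the next at 2.41. Sptb was at -6.41 in knockout control mouse 1, with the next at -5.58.

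The FB1 effect differed between genotypes, by the limma test of the difference itself, for Klf1 (-1.34 log2 units, knockout minus wild type) and Sptb (-1.69). For Klf1 the second probe did not show it past the threshold. For Sptb none of the knockout FB1 arrays was well above background, so the size is not a measured one.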

How the results depend on the processing

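Over the alternatives, 844 of the values for single genes kept their direction and their side of the threshold, 44 lost and 8 gained a call, and 46 turned direction, none of them called. The count of called erythroid genes for FB1 in the knockout was 3 and fell to 0 in slide 2 alone; knockout against wild type with FB1 went from 3 to 1 in slide 2 alone; knockout against wild type without FB1 went from 3 to 0 in each slide alone. The difference of the FB1 effects went from 2 to 1 with probes above background on every array, with normexp and with the authors' values, and to 0 in slides 1 and 2 alone. A single slide has 2 arrays a group. For FB1 in wild type the count was 0 to 2 as arrays were left out. The replicate number as a block changed 1 call, that of Hemgn for knockout against wild type without FB1 (adjusted p = 0.0516, 0.60), took the count there from 3 to 2 and changed no other call of the 8 genes; in the wider lists it took globins from 0 to 1 and erythropoietin signalling from 2 to 1 (knockout against wild type without FB1), and membrane and skeleton genes from 2 to 1 (difference of effects); same-numbered mice correlated at -0.20 to 0.24, so the numbers do not pair them. The same block took blood stem and progenitor markers from 1 to 0 (FB1 in wild type) and hepatocyte markers from 1 to 0 (knockout against wild type without FB1). That Hemgn call and the Alas2 call under FB1 (0.57) were also lost without the dim-probe filter and with only the compared groups fitted. Values that turned direction had not been called. In slide 1 alone they were 0.08 for Ahsp, -0.33 for Alas2 and -0.16 for Slc4a1 (FB1 in knockout), -0.01 for Alas2 and 0.30 for Sptb (FB1 in wild type), and 0.09 for Epor and 0.04 for Hemgn (difference of effects). In slide 2 alone they were 0.21 for Alas2 (difference of effects) and 0.01 for Epor (knockout without FB1). In slide 3 alone they were 0.07 for Ahsp (FB1 in knockout), 0.21 for Epor, 0.06 for Klf1 and 0.25 for Sptb (FB1 in wild type), and -0.63 for Slc4a1 (knockout with FB1). For Slc4a1, FB1 in the knockout was -0.01 with normexp, -0.07 with quantile normalization and -0.05 with the authors' values, and knockout against wild type with FB1 was -0.04, 0 and -0.02. Sptb for FB1 in wild type was 0.03 with normexp. As arrays were left out, Ahsp ranged from -0.24 to 0.35 and Slc4a1 from -0.13 to 0.23 (FB1 in knockout), Epor from -0.12 to 0.03 and Sptb from -0.18 to 0.09 (FB1 in wild type), Alas2 from -0.22 to 0.05 (difference of effects), and Slc4a1 from -0.18 to 0.19 (knockout with FB1). The cause of these changes was not tested. With normexp Sptb was at -0.18 for FB1 in the knockout and -0.21 for the difference of effects, neither called, and at -0.35 for the latter with the authors' values, not called; that setting moves dim signals towards each other. Signals near background, those of Sptb, Epb4.2 and the lowest Ahsp arrays, set the limit of what could be measured.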
